A study of Mus musculus with 39 samples.

Results

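The Hox genes of the mouse were followed through RNA from the cortical bone of femurs. A row of the count tables was taken as a member when its Ensembl identifier carried a protein-coding symbol of the form Hoxa, Hoxb, Hoxc or Hoxd followed by a paralogue number, which gave 39 genes among 37583. The 39 genes lie in 4 clusters, with 11 genes in HoxA, 10 in HoxB, 9 in HoxC and 9 in HoxD. The RNA was sequenced as 39 libraries in 2 experiments that share no control libraries. The Sik2/3 experiment had 8 libraries labelled Sik2/3 DKO, a double knockout of the salt-inducible kinases Sik2 and Sik3, and 8 labelled WT. The C1HR experiment had 12 libraries of Col1a1-Pth1r H223R mice, abbreviated C1HR, and 11 WT libraries of its own. C1HR mice carry the parathyroid hormone receptor with the H223R substitution, which makes it constitutively active, behind the type I collagen promoter, so the transgene is driven in cells that make type I collagen. The labels give no other allele or agent and no age, and the Cre or other driver of the Sik2/3 deletion is not given in the sources used here. The 2 kinds of mice were studied as models of increased trabecular bone mass.

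Hox proteins are homeodomain transcription factors that give cells their position along the body axis. The genes stand in each cluster in the order in which they are used along that axis, and genes with the same number in different clusters, the paralogues, are close relatives. In the limb the paralogues of group 10 pattern the upper segment that holds the femur, those of group 11 the next segment and those of group 13 the hand and foot, and mesenchymal cells of the adult skeleton keep part of this embryonic pattern. Blood-forming cells use Hox genes too: Hoxa9 and its neighbours Hoxa5, Hoxa6 and Hoxa7 are known from haematopoietic stem and progenitor cells. A femur therefore holds at least 2 cell populations with Hox transcripts, bone-lineage cells and the marrow that touches the bone.

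The members share the homeobox, a stretch of 180 bases that codes for the DNA-binding homeodomain. The homeoboxes of the paralogues Hoxa10 and Hoxc10 are printed here because these 2 posterior genes are among the most abundant members, and because their likeness bears on whether reads of 50 bases can be told apart. They were read from the GENCODE vM1 protein-coding transcripts (build NCBIM37, which mm9 names), 5′ to 3′ on the coding strand, from the minus strand of chromosome 6 for Hoxa10 and the plus strand of chromosome 15 for Hoxc10. Capitals mark bases 142 to 159, which code for the conserved run of the recognition helix.
Hoxa10: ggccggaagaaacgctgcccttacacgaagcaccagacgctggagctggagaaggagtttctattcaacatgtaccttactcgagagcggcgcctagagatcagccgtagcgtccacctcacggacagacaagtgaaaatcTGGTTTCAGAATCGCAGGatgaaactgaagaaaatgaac
Hoxc10: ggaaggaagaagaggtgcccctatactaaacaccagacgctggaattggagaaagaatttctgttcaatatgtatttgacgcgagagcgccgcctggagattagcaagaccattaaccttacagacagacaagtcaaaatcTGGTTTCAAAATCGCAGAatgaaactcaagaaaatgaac

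Hoxa10 and Hoxc10 have 80.6% of their homeobox bases in common, with a longest identical run of 14 bases. The longest run over all pairs of members was 52 bases, between Hoxa6 and Hoxb4. Among the protein-coding transcripts, the only ones compared, no word of 50 bases from Hoxa10, Hoxc10, Hoxc11, Hoxd8 or Hoxd9 occurred in another gene. Overlap along the chromosome, rather than likeness, was the larger source of shared words: 42.2% of the words of Hoxd4 lie in Hoxd3, and 37.4% of those of Hoxb8 lie in Hoxb7. Antisense genes overlap 49.4% of the exon bases of Hoxb2 (Hoxb3os), 38.6% of those of Hoxa11 (Hoxa11as) and 37.9% of those of Hoxb3 (Hoxb3os). The exons of Hoxa3 have 53.5% of their bases in common with other annotated genes. Those of Hoxc10 have 8.7% in common with Gm20398, a gene outside the protein-coding set. Counting did not use strand, and reads that fall in exons of more than 1 gene were counted for neither, so these members' levels are uncertain.

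The promoters of Hoxd8 and Hoxa11 are shown because CREB, the transcription factor that cyclic AMP activates after parathyroid hormone signalling, binds the letters TGACG, and each of these windows holds them 2 times. They are the 250 bases before the annotated start in RefSeq on build GRCm38.p6, at chr2:74704365-74704614 on the plus strand for Hoxd8 and chr6:52245811-52246060 on the minus strand for Hoxa11, 5′ to 3′, with the half-site in capitals as TGACG or, on the other strand, CGTCA.
Hoxd8: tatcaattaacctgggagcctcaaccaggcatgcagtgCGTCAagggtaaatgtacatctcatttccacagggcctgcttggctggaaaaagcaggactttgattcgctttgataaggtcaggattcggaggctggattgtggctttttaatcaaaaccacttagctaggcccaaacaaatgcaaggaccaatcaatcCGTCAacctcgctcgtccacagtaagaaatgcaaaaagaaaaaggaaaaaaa
Hoxa11: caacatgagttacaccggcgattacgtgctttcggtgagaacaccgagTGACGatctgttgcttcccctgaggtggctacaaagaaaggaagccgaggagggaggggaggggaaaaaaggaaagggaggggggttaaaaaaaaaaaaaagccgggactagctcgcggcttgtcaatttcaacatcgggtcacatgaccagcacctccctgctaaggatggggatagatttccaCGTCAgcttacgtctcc

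RefSeq promoters were matched for 22 of the 39 genes, as 24 windows. TGACG, searched on both strands, was in 29.2% of the 24 Hox windows and in 17.8% of 32851 windows of the same length from all genes. The full element TGACGTCA, which contains 2 overlapping half-sites, was in 0 of the 24 Hox windows and in 1.5% of all windows. TATAAA was in 16.7% of Hox windows and 12.4% of all. The median number of CpG dinucleotides was 12.5 in Hox windows and 6 in all windows. Hoxd8 and Hoxa11, with 2 half-sites each, had log2 fold changes of −1.045 and −0.958 for DKO against WT. Hoxb4 and Hoxd9 had 0 half-sites and the smallest and largest change of the tested members, at −0.014 and −1.354, the latter with the widest error. Any relation of half-sites to the change was not tested. These matches describe letters in the windows and not binding.

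Gene counts per library ran from 11444686 to 24922490. The targeted genes were read first. Sik2 was higher in the libraries labelled DKO than in those labelled WT, with 20.3, 31.4 and 38.1 CPM (lowest, median, highest) under the label DKO against 15.7, 18.6 and 25.5 CPM under the label WT (edgeR, log2 fold change 0.64 ± 0.14 SE, adjusted p = 0.0013). Sik3 did not differ past the threshold (log2 fold change −0.21 ± 0.14, adjusted p = 0.22). The counts pool all exons, Sik2 exons overlap another gene, and the deleted part is not given, so neither row checks the deletion and the Sik2 row goes against the label. Pth1r had 351, 484 and 580 CPM in C1HR and 97.7, 130 and 160 CPM in its WT group (log2 fold change 1.89 ± 0.10, adjusted p = 8.7e-15). Osteoblast and osteocyte genes were abundant in every group, with 41160 to 110500 summed CPM in libraries labelled DKO, 44450 to 147000 in those labelled WT, and 142900 to 289200 in C1HR, beside 30920 to 60230 in its WT group. Of the design's libraries, WT 5 and WT 6 of the Sik2/3 experiment and C1HR 8 and C1HR 9 stood apart from their groups on the first principal component, toward the opposite group. In WT 5 and WT 6 the summed CPM of 12 granulocyte genes was 16070 and 8104, against at most 2967 in the other 6 libraries labelled WT, and in C1HR 8 and C1HR 9 it was 5747 and 4388, against at most 1507 in the other 10 C1HR libraries. For the C1HR experiment the design text leaves out the flushing of marrow, which the protocol of every library includes, and it counts 6 WT in the Sik2/3 experiment while the labels give 8. The total counts of members called and the granulocyte and erythroid sums are also given without these 4 libraries, as is the Hox sum in the Sik2/3 experiment. Other values include all 4 unless stated.

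Cortical bone carried Hox transcripts of a middle range of each cluster. A mean of at least 1 CPM in any group was reached by 26 of the 39 genes, and the same 26 passed the filter on low counts in at least 1 comparison. Hoxc10 was the highest member in every group once levels were divided by exon length: its mean level was 7.78 ± 1.89 CPM per kb (SD, n = 8) in the libraries labelled DKO, 16.1 ± 2.43 (n = 8) in those labelled WT, 17.9 ± 4.15 (n = 12) in C1HR and 5.05 ± 0.806 (n = 11) in its WT group. In the Sik2/3 experiment Hoxa9 followed, at 6.39 ± 1.34 CPM per kb under the label DKO and 9.81 ± 1.13 under the label WT, and then Hoxa10 at 5.39 ± 1.47 and 7.21 ± 0.779 CPM per kb. In the C1HR experiment Hoxa10 followed, at 8.42 ± 1.20 CPM per kb in C1HR and 2.67 ± 0.222 in its WT group, and then Hoxc9 at 8.31 ± 1.69 and 2.28 ± 0.256 CPM per kb. Under the label DKO, Hoxc10, Hoxa9 and Hoxa10 each lay within 1 SD of the next in the order, as Hoxa10 and Hoxc9 did in C1HR, whereas Hoxc10 stood more than 1 SD above the next gene in the other 3 groups. Levels of the 2 experiments were scaled separately and the bones may have been prepared differently, so levels are compared within an experiment only.

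**Figure D1:**
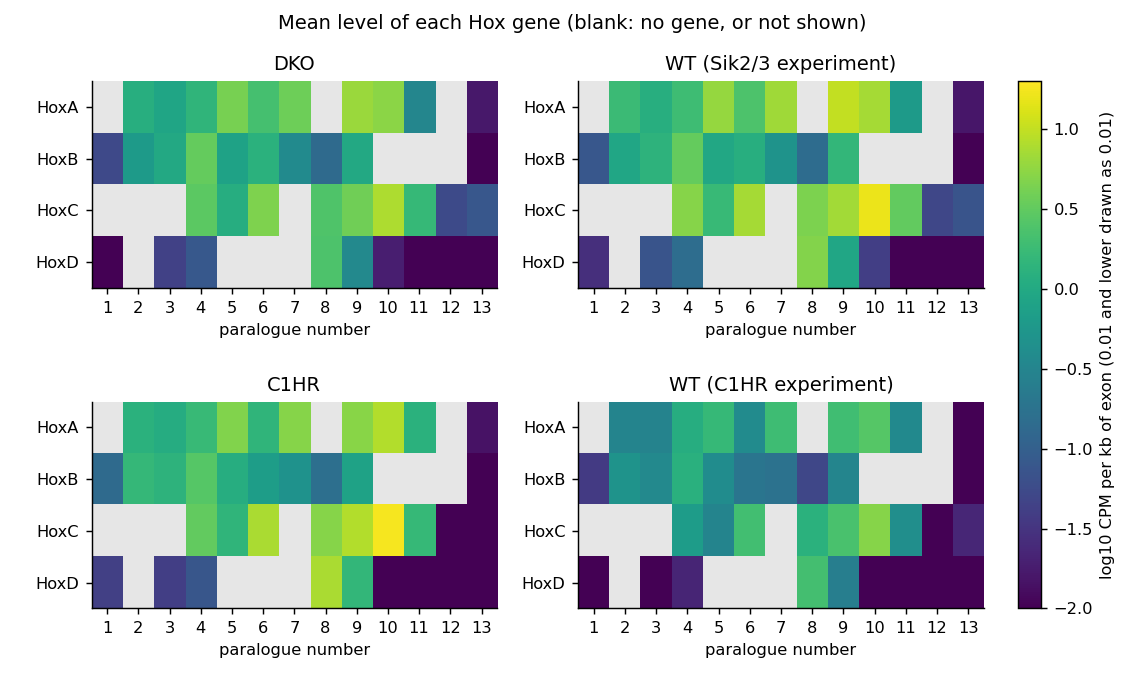
Mean level of each Hox gene, as log10 CPM per kb of exon, by cluster (rows) and paralogue number (columns) in the 4 groups; light grey marks positions with no gene or a gene not shown, and levels of 0.01 CPM per kb and lower are drawn as 0.01. The brightest square in every panel is Hoxc10, and paralogues 12 and 13 and Hoxd10 to Hoxd13 are dark in all 4 panels.

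Summed over the 39 genes, the libraries labelled DKO had less Hox RNA and the C1HR libraries had more, each against its own WT group. The sum was 131, 165 and 222 CPM (lowest, median, highest) in the libraries labelled DKO and 201, 273 and 289 CPM in those labelled WT, with 6 of 8 libraries labelled DKO below the lowest labelled WT. Without WT 5 and WT 6, all 8 libraries labelled DKO lay below the lowest labelled WT, which had 269.6 CPM. In C1HR the sum was 188, 255 and 300.3 CPM, against 64.7, 77.6 and 86.9 CPM in its WT group, so that all 12 C1HR libraries lay above all 11 WT libraries. C1HR 8 and C1HR 9 were the 2 lowest C1HR libraries, with sums of 199.7 and 188.0 CPM. In bulk RNA, fewer cells that carry a transcript and less of it per cell cannot be told apart.

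HoxA and HoxC together supplied most of the sum in every group. HoxA genes made up a median of 47.02% of Hox CPM in the libraries labelled DKO and 43.9% in those labelled WT, and 38.3% in C1HR, beside 42.5% in its WT group. HoxC genes made up 32.3% in the libraries labelled DKO and 38.1% in those labelled WT, and 39.6% in C1HR, beside 34.3% in its WT group. HoxA thus had the larger median share under the label DKO and the smaller in C1HR, each against its WT group, and HoxC the reverse. The HoxB share was 16.7% in the libraries labelled DKO and 12.4% in those labelled WT, and 12.1% in C1HR, beside 14.9% in its WT group. The HoxD share was 4.57% in the libraries labelled DKO and 5.68% in those labelled WT, and 9.84% in C1HR, beside 8.28% in its WT group. HoxB followed HoxA and HoxD followed HoxC in these directions. No test was run on these shares.

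Among the posterior genes, paralogues 10 to 13, only Hoxa10, Hoxa11, Hoxc10 and Hoxc11 passed the filter, and all 4 were lower in the libraries labelled DKO. Hoxc10, a gene of the hindlimb and lumbar region, at chr15:102797227-102802324 on the plus strand in mm9, had 12.2, 13.1 and 22.3 CPM in the libraries labelled DKO, against 21.4, 30.8 and 37.5 CPM in the libraries labelled WT (log2 fold change −1.05 ± 0.14 SE, adjusted p = 3.67e-05, edgeR). All but 1 of the 8 libraries labelled DKO lay below the lowest labelled WT. Hoxa10, which patterns the femur with its paralogues, at chr6:52181196-52190853 on the minus strand, had 13.6, 20.02 and 30.9 CPM in the libraries labelled DKO, against 23.3, 27.4 and 32.6 CPM in the libraries labelled WT (log2 fold change −0.42 ± 0.14 SE, adjusted p = 0.0201). Its groups overlapped more, with 6 of 8 libraries labelled DKO below all labelled WT and 1 above the WT mean, and without WT 5 and WT 6 it was no longer called (adjusted p = 0.06). Hoxa10 also lost its call when WT 8 alone was left out (edgeR, adjusted p = 0.0561). Hoxc11, a hindlimb gene next to Hoxc10, had 1.51, 3.51 and 4.45 CPM in the libraries labelled DKO, against 4.44, 6.49 and 8.47 CPM in the libraries labelled WT (log2 fold change −0.98 ± 0.20 SE, adjusted p = 0.000665). Hoxa11, which patterns the segment below the femur, was near the lower limit of the measurement, at 0.676, 0.772 and 1.52 CPM in the libraries labelled DKO, against 0.717, 1.78 and 2.77 CPM in the libraries labelled WT (log2 fold change −0.96 ± 0.27 SE, adjusted p = 0.00709). All 8 libraries labelled DKO lay below the WT mean of Hoxa11, and 3 lay below the lowest labelled WT. For reference, 30.9% of the 15479 genes tested in this experiment were called lower, and 24.1% higher.

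In C1HR the same 4 posterior genes were higher. Hoxc10 had 24.3, 31.1 and 48.6 CPM in C1HR and 7.88, 9.45 and 12.3 CPM in its WT group (log2 fold change 1.82 ± 0.12 SE, adjusted p = 2.20e-13), a 3.54-fold difference. Hoxa10 had 24.9, 32.8 and 41.3 CPM in C1HR and 8.54, 10.4 and 11.9 CPM in its WT group (log2 fold change 1.65 ± 0.08 SE, adjusted p = 5.48e-16). In both genes every C1HR library lay above every WT library. Hoxa11 had 1.94, 3.58 and 4.96 CPM in C1HR and 0.593, 1.02 and 1.47 CPM in its WT group (log2 fold change 1.81 ± 0.17 SE, adjusted p = 2.71e-10), again without overlap. Hoxc11 had 1.39, 3.42 and 4.46 CPM in C1HR and 0.468, 0.945 and 1.39 CPM in its WT group (log2 fold change 1.92 ± 0.19 SE, adjusted p = 9.77e-10), with 11 of 12 C1HR libraries above the highest WT library. In this experiment 43.7% of the 13976 genes tested were called higher and 40.6% lower, so a call in itself is near the background, and 27.8% of tested genes had every C1HR library above every WT library.

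The other 8 posterior genes were close to the detection limit in every group. Hoxd12 had 0 reads in 39 libraries, which allows at most 0.00429 CPM over all of them (3 counts, counting error only), and Hoxb13 had 1 read, in a C1HR library. Hoxd13 and Hoxa13, genes of the digits, had 8 and 22 reads in all. Hoxd11 had 13 reads and Hoxd10 had 33, of which 19 were in the libraries labelled WT. Among those, WT 6 had 0.495 CPM of Hoxd10 and the others had at most 0.129 CPM. Hoxc12 had 11 reads under the label DKO, 9 under the label WT, and 0 in C1HR, beside 1 in its WT group. Hoxc13, known from hair and nail, had 38 reads in the libraries labelled DKO and 31 in those labelled WT, and 3 in C1HR, beside 9 in its WT group. Differences among these genes were not detectable at this depth.

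Of the genes known from blood-forming cells, Hoxa5, Hoxa7 and Hoxa9 were lower in the libraries labelled DKO and Hoxa6 was not called. Hoxa9, at chr6:52173099-52181088 on the minus strand, had 14.2, 23.3 and 28.1 CPM in the libraries labelled DKO, against 27.3, 33.5 and 39.2 CPM in the libraries labelled WT (log2 fold change −0.62 ± 0.12 SE, adjusted p = 0.000693), with 7 of 8 libraries labelled DKO below the lowest labelled WT. Hoxa7 had 8.39, 10.9 and 12.8 CPM in the libraries labelled DKO, against 12.6, 19.5 and 25.7 CPM in the libraries labelled WT (log2 fold change −0.88 ± 0.14 SE, adjusted p = 0.000142), also with 7 of 8 below. Hoxa5, which patterns the neck and upper thorax and acts in the lung, had 4.41, 8.503 and 11.5 CPM in the libraries labelled DKO, against 8.202, 11.8 and 12.9 CPM in the libraries labelled WT (log2 fold change −0.49 ± 0.17 SE, adjusted p = 0.0227). It lost its call without WT 1 or without WT 2, at an adjusted p of 0.0515 and 0.052. Hoxa6 had 3.18, 4.21 and 5.29 CPM in the libraries labelled DKO, against 3.27, 4.91 and 6.54 CPM in the libraries labelled WT (log2 fold change −0.20 ± 0.16 SE, adjusted p = 0.29). Markers of 4 blood-cell lists ran the other way in the same libraries: 11 of 12 granulocyte genes, 6 of 7 erythroid genes, 8 of 8 B-lineage genes and 5 of 5 megakaryocyte genes were called higher under the label DKO. Of 9 haematopoietic progenitor genes, 5 were called higher and 1 lower, and all 5 osteoclast genes were called lower. Over all genes tested, 24.1% were called higher and 30.9% lower.

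In C1HR all 4 of these genes were higher. Hoxa9 had 13.5, 19.1 and 22.7 CPM in C1HR and 5.28, 6.68 and 7.87 CPM in its WT group (log2 fold change 1.45 ± 0.10 SE, adjusted p = 4.63e-13). Hoxa7 had 9.98, 13.7 and 19.5 CPM in C1HR and 4.17, 5.201 and 7.26 CPM in its WT group (log2 fold change 1.38 ± 0.11 SE, adjusted p = 1.10e-11). Every C1HR library lay above every WT library in both. Hoxa5 had 6.81, 9.02 and 10.4 CPM in C1HR and 1.93, 3.05 and 3.73 CPM in its WT group (log2 fold change 1.52 ± 0.10 SE, adjusted p = 2.82e-13). Hoxa6 had 1.67, 2.69 and 4.36 CPM in C1HR and 0.4101, 0.735 and 1.23 CPM in its WT group (log2 fold change 1.84 ± 0.17 SE, adjusted p = 3.45e-10). None of these groups overlapped. The markers of the same blood-cell lists again ran the other way, with 12 of 12 granulocyte, 7 of 7 erythroid, 8 of 8 B-lineage and 5 of 5 megakaryocyte genes called lower in C1HR. Of 9 haematopoietic progenitor genes, 2 were called higher and 5 lower, and all 5 osteoclast genes were called higher. Over all genes tested, 43.7% were called higher and 40.6% lower.

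**Figure D2:**
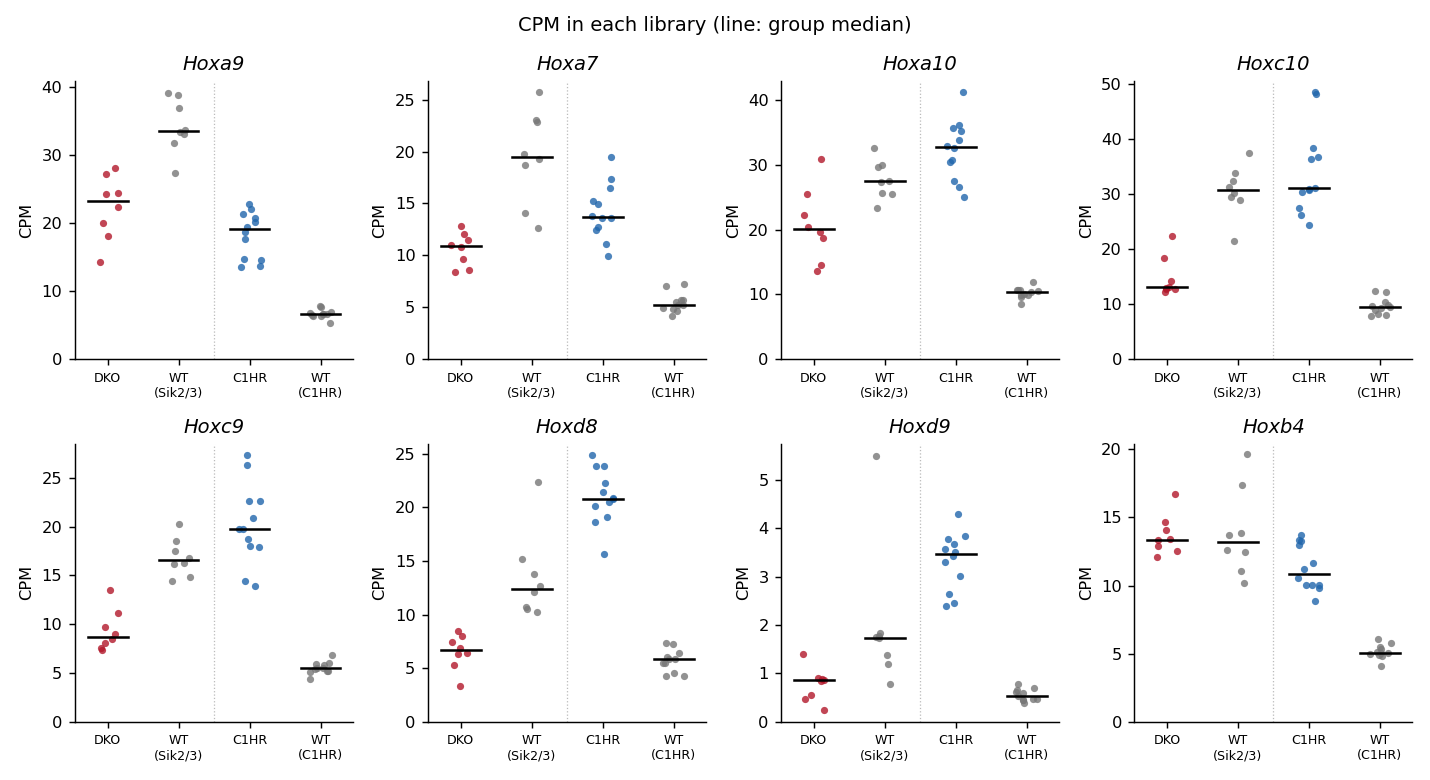
CPM of 8 Hox genes in each library (points) with the group median (line), in the libraries labelled DKO and WT of the Sik2/3 experiment (left of the dotted line) and in C1HR and its WT group (right). In Hoxc9 and Hoxd8 all 8 libraries labelled DKO lie below all 8 labelled WT, in Hoxb4 the groups of the Sik2/3 experiment overlap, and every C1HR library lies above every WT library in all 8 genes.

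Middle genes of HoxC and HoxD were lower too in the libraries labelled DKO, and 2 of them, Hoxc9 and Hoxd8, separated the groups fully. The smallest adjusted p of any member was that of Hoxc10 (edgeR, 3.67e-05). Hoxc9, at chr15:102806870-102815530 on the plus strand, had 7.35, 8.71 and 13.5 CPM in the libraries labelled DKO, against 14.4, 16.5 and 20.3 CPM in the libraries labelled WT (log2 fold change −0.85 ± 0.12 SE, adjusted p = 6.96e-05). Hoxd8, at chr2:74542672-74545990 on the plus strand, had 3.32, 6.66 and 8.44 CPM in the libraries labelled DKO, against 10.2, 12.4 and 22.3 CPM in the libraries labelled WT (log2 fold change −1.04 ± 0.19 SE, adjusted p = 0.00035). These 2 were the members in which every library labelled DKO lay below every library labelled WT, as did 4.08% of the 15479 tested genes. Hoxd9, next to Hoxd8, had the largest fold of any member but the widest error, with 0.249, 0.861 and 1.398 CPM in the libraries labelled DKO, against 0.773, 1.73 and 5.49 CPM in the libraries labelled WT (log2 fold change −1.35 ± 0.38 SE, adjusted p = 0.00665). Its highest value came from WT 6, while the next library labelled WT had 1.84 CPM. Hoxc8, which patterns the lower thorax and the motor neurons of the forelimb, had 4.197, 5.35 and 8.62 CPM in the libraries labelled DKO, against 7.15, 9.41 and 12.99 CPM in the libraries labelled WT (log2 fold change −0.85 ± 0.17 SE, adjusted p = 0.000696). Hoxb9 had 1.19, 2.61 and 3.83 CPM in the libraries labelled DKO, against 3.33, 3.69 and 5.08 CPM in the libraries labelled WT (log2 fold change −0.66 ± 0.19 SE, adjusted p = 0.00721). In both genes 7 of 8 libraries labelled DKO lay below the lowest labelled WT.

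In C1HR these genes were higher by larger factors. Hoxd9 had 2.397, 3.47 and 4.29 CPM in C1HR and 0.397, 0.536 and 0.787 CPM in its WT group (log2 fold change 2.55 ± 0.13 SE, adjusted p = 6.01e-15), which at 5.87-fold was the largest fold of the tested members. Hoxd8 had 15.7, 20.8 and 24.9 CPM in C1HR and 4.24, 5.81 and 7.33 CPM in its WT group (log2 fold change 1.88 ± 0.10 SE, adjusted p = 3.20e-15). Both HoxD genes were without overlap between the groups. Hoxc9 had 13.9, 19.8 and 27.3 CPM in C1HR and 4.38, 5.49 and 6.81 CPM in its WT group (log2 fold change 1.86 ± 0.10 SE, adjusted p = 1.85e-14). Hoxc8 had 7.90, 11.7 and 15.3 CPM in C1HR and 1.504, 2.94 and 3.92 CPM in its WT group (log2 fold change 2.00 ± 0.15 SE, adjusted p = 2.68e-12). Hoxb9 had the smallest fold among the paralogues of group 9, at 1.25, 2.13 and 2.71 CPM in C1HR and 0.268, 0.918 and 1.37 CPM in its WT group (log2 fold change 1.28 ± 0.20 SE, adjusted p = 1.48e-06), with 11 of 12 C1HR libraries above the highest WT library.

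Hoxc4, Hoxc5 and Hoxc6, the anterior end of HoxC, which pattern the neck and thorax, were lower in the libraries labelled DKO. Hoxc6 had 7.35, 10.3 and 17.4 CPM in the libraries labelled DKO, against 11.1, 17.8 and 23.2 CPM in the libraries labelled WT (log2 fold change −0.61 ± 0.18 SE, adjusted p = 0.0076). Hoxc4 had 5.13, 7.29 and 11.1 CPM in the libraries labelled DKO, against 7.13, 13.4 and 16.1 CPM in the libraries labelled WT (log2 fold change −0.78 ± 0.18 SE, adjusted p = 0.00184). Hoxc5 had 2.16, 3.38 and 4.79 CPM in the libraries labelled DKO, against 3.09, 4.83 and 6.69 CPM in the libraries labelled WT (log2 fold change −0.56 ± 0.17 SE, adjusted p = 0.0121). All 8 libraries labelled DKO lay below the WT mean in all 3 genes, and the groups overlapped. In the C1HR experiment Hoxc4 had 4.02, 8.79 and 10.5 CPM in C1HR and 1.19, 1.59 and 2.44 CPM in its WT group (log2 fold change 2.29 ± 0.15 SE, adjusted p = 3.05e-13). Hoxc5 had 3.51, 3.91 and 5.51 CPM in C1HR and 0.519, 0.945 and 1.41 CPM in its WT group (log2 fold change 2.23 ± 0.15 SE, adjusted p = 6.55e-13). Hoxc6 had 15.3, 18.7 and 22.98 CPM in C1HR and 4.15, 5.13 and 5.83 CPM in its WT group (log2 fold change 1.90 ± 0.08 SE, adjusted p = 1.04e-16). The C1HR libraries all lay above the WT libraries in these 3 genes.

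At the anterior end of HoxA, Hoxa2 and Hoxa3 were called lower in the libraries labelled DKO. Hoxa2, which sets the identity of the pharyngeal arch that forms the stapes, had 2.23, 2.62 and 4.31 CPM in the libraries labelled DKO, against 2.42, 4.13 and 5.63 CPM in the libraries labelled WT (log2 fold change −0.60 ± 0.19 SE, adjusted p = 0.0116). Hoxa3, which acts in the thymus and parathyroid glands, had 4.61, 5.503 and 7.41 CPM in the libraries labelled DKO, against 5.02, 7.42 and 11.1 CPM in the libraries labelled WT (log2 fold change −0.43 ± 0.15 SE, adjusted p = 0.024). Hoxa3 lost its call without WT 3 (adjusted p = 0.055). Hoxa4 was not called at 1.63, 2.25 and 3.35 CPM in the libraries labelled DKO, against 2.196, 3.06 and 3.83 CPM in the libraries labelled WT (log2 fold change −0.38 ± 0.17 SE, adjusted p = 0.071). Without WT 5 alone Hoxa4 was called lower (adjusted p = 0.0376), and without DKO 6 it was too (0.0227). In the C1HR experiment Hoxa2 had 1.96, 3.21 and 4.21 CPM in C1HR and 0.4101, 0.675 and 1.46 CPM in its WT group (log2 fold change 2.01 ± 0.19 SE, adjusted p = 2.34e-10). Hoxa3 had 4.58, 7.11 and 11.7 CPM in C1HR and 1.38, 2.05 and 2.25 CPM in its WT group (log2 fold change 1.91 ± 0.13 SE, adjusted p = 8.73e-13). Neither gene's groups overlapped. Hoxa4 had the smallest fold of the members tested in C1HR, at 1.93, 2.69 and 3.58 CPM in C1HR and 1.19, 1.94 and 2.22 CPM in its WT group (log2 fold change 0.54 ± 0.12 SE, adjusted p = 0.000229), with 10 of 12 C1HR libraries above the highest WT library.

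In HoxB, 3 of 7 tested genes were called lower in the libraries labelled DKO. This was the smallest share of the 4 clusters and near the 30.9% of all genes tested. Hoxb4, known for the expansion of haematopoietic stem cells when overexpressed, was the most abundant HoxB gene and had 12.1, 13.4 and 16.7 CPM in the libraries labelled DKO, against 10.2, 13.2 and 19.6 CPM in the libraries labelled WT (log2 fold change −0.01 ± 0.13 SE, adjusted p = 0.929). Hoxb6 had 1.83, 2.55 and 3.60 CPM in the libraries labelled DKO, against 1.43, 2.59 and 3.06 CPM in the libraries labelled WT (log2 fold change 0.09 ± 0.19 SE, adjusted p = 0.713). In Hoxb4 all libraries labelled DKO lay within the range of those labelled WT. In Hoxb6 the groups overlapped, with 3 of 8 libraries labelled DKO above the highest labelled WT. Hoxb5 was not called either, at 1.46, 1.89 and 3.83 CPM in the libraries labelled DKO, against 1.43, 2.96 and 3.63 CPM in the libraries labelled WT (log2 fold change −0.26 ± 0.23 SE, adjusted p = 0.35). Hoxb2 and Hoxb3, genes of the hindbrain, were at the threshold: Hoxb2 had 1.66, 1.98 and 2.74 CPM in the libraries labelled DKO, against 1.61, 2.99 and 4.25 CPM in the libraries labelled WT (log2 fold change −0.50 ± 0.21 SE, adjusted p = 0.0496). Hoxb3 had 1.87, 2.81 and 4.92 CPM in the libraries labelled DKO, against 2.87, 3.86 and 5.75 CPM in the libraries labelled WT (log2 fold change −0.47 ± 0.20 SE, adjusted p = 0.0525). Hoxb7 was called by a narrow margin at 1.204, 1.57 and 2.002 CPM in the libraries labelled DKO, against 1.59, 1.83 and 2.696 CPM in the libraries labelled WT (log2 fold change −0.37 ± 0.15 SE, adjusted p = 0.047). The calls of Hoxb2 and Hoxb7 were lost when any of several libraries was left out, with adjusted p up to 0.12 for Hoxb2 and 0.11 for Hoxb7, and Hoxb3 was called without DKO 7 (0.0092) or without WT 5 (0.028).

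In C1HR the HoxB genes were higher with the others. Hoxb4 had 8.87, 10.9 and 13.7 CPM in C1HR and 4.08, 5.08 and 6.07 CPM in its WT group (log2 fold change 1.13 ± 0.08 SE, adjusted p = 2.89e-12), a 2.19-fold difference with no overlap. Hoxb2 had 3.704, 4.96 and 7.07 CPM in C1HR and 1.06, 1.62 and 2.34 CPM in its WT group (log2 fold change 1.67 ± 0.14 SE, adjusted p = 3.59e-11). Hoxb3 had 2.32, 4.15 and 5.72 CPM in C1HR and 0.578, 1.08 and 1.67 CPM in its WT group (log2 fold change 1.91 ± 0.18 SE, adjusted p = 3.84e-10). Every C1HR library lay above every WT library in these genes and in the next pair. Hoxb5 had 2.44, 3.37 and 4.65 CPM in C1HR and 0.463, 1.24 and 1.49 CPM in its WT group (log2 fold change 1.49 ± 0.15 SE, adjusted p = 1.27e-09). Hoxb7 had 1.38, 1.92 and 2.55 CPM in C1HR and 0.335, 0.668 and 1.32 CPM in its WT group (log2 fold change 1.45 ± 0.17 SE, adjusted p = 1.61e-08). Hoxb6 did not pass the filter in this experiment, at 0.654, 1.53 and 2.34 CPM in C1HR and 0.201, 0.401 and 0.694 CPM in its WT group. With no filter it was called (log2 fold change 1.83 ± 0.24, adjusted p = 3.8e-08), and 11 of 12 C1HR libraries lay above the highest WT library.

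The 5 remaining members, Hoxb1, Hoxb8, Hoxd1, Hoxd3 and Hoxd4, stayed under 1 CPM on average in every group and were not tested. Hoxb1 had 25 reads in the libraries labelled DKO and 32 in those labelled WT, and 52 in C1HR, beside 14 in its WT group. Hoxb8 had 72 reads under the label DKO and 69 under the label WT, and 68 in C1HR, beside 22 in its WT group. Hoxd3 and Hoxd4 had 49 and 41 reads under the label DKO, 73 and 68 under the label WT, 40 and 32 in C1HR and 5 and 9 in its WT group. Hoxd1 had 2 reads under the label DKO, 9 under the label WT, and 13 in C1HR, beside 3 in its WT group. With no filter, edgeR called all 5 higher in C1HR, with adjusted p between 0.00021 for Hoxd3 and 0.025 for Hoxd1. In that fit 7524 of 25718 genes were called higher, and none of the low-count posterior genes was called. None of the 5 was called in the Sik2/3 experiment with no filter, where the smallest adjusted p was 0.094 for Hoxd1.

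**Figure D3:**
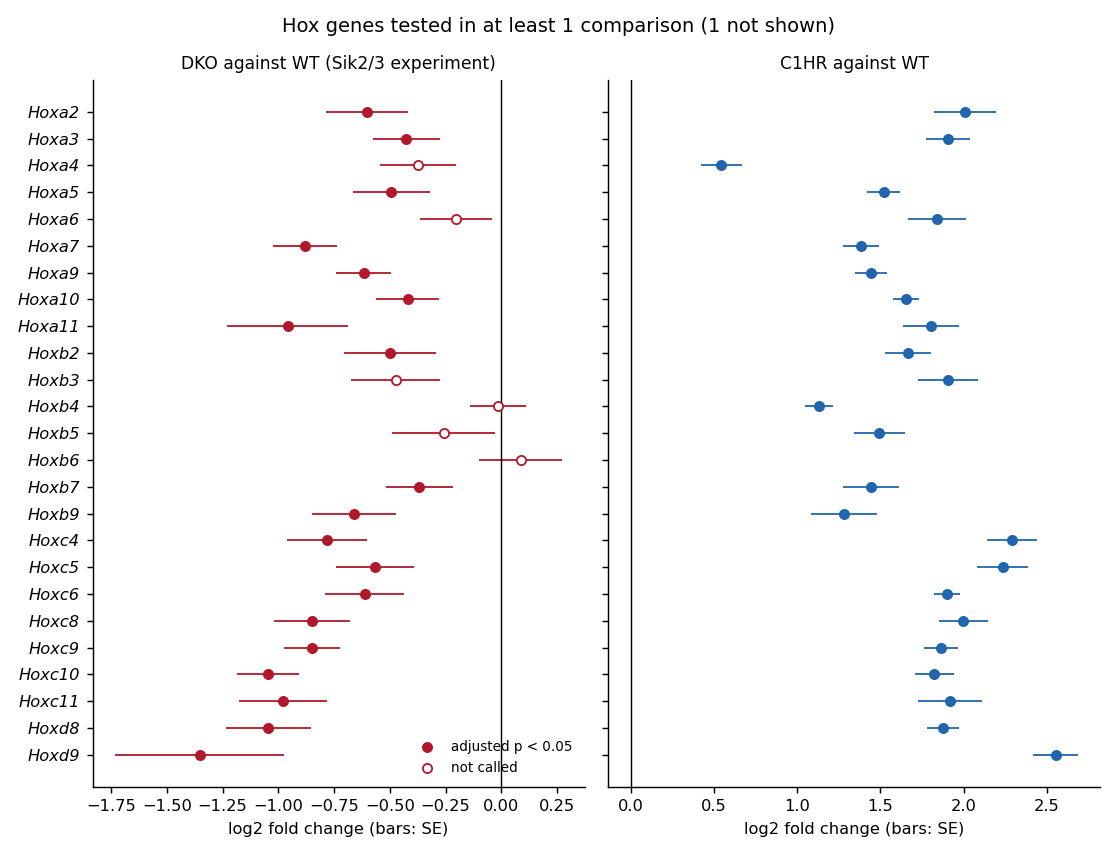
Log2 fold change (points) with its standard error (bars) of the Hox genes tested, in the order of clusters HoxA to HoxD and of paralogue number, for DKO against WT in the Sik2/3 experiment (left) and C1HR against WT (right); filled points are called at an adjusted p under 0.05. In the left panel 24 of the 25 points lie below 0 and 19 are called, and in the right panel all 24 points lie above 0 and are called, with 1 tested member not drawn in either, while Hoxb6 has no point because it was not tested in C1HR.

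Counted together, 19 of the 26 members tested in the Sik2/3 experiment were called lower and 0 higher, beside 30.9% and 24.1% of all genes tested. Their median log2 fold change was −0.58, beside −0.09 over all 15479 genes. The other 7 were not called. Only Hoxc10, Hoxd8 and Hoxd9 were lower by more than 2-fold, the criterion of the design text, which 6.76% of all tested genes met. In C1HR, 25 of 25 tested members were called higher, beside 43.7% of all genes. Their median log2 fold change was 1.83, beside 0.05 over all 13976 genes. All but Hoxa4 exceeded 2-fold, as did 22.1% of all genes, and 22 of the 25 had every C1HR library above every WT library, beside 27.8%. Scaling by library totals alone, chosen after seeing the data, put the median of all genes at 0.12 in the Sik2/3 experiment and at −0.35 in the C1HR experiment. Under that scaling 12 members were called lower and 0 higher in the Sik2/3 experiment, where Hoxa2, Hoxa3, Hoxa5, Hoxa10, Hoxb2, Hoxb7 and Hoxc5 lost their calls. The median Hox log2 fold change was then −0.36, with the uncalled Hoxa6, Hoxb4 and Hoxb6 at 0.007, 0.202 and 0.298, and 24 were called higher in C1HR, with a median of 1.404. It also shifted the split of calls over all genes, which was 5270 higher and 2697 lower in the Sik2/3 experiment (with TMM, 3726 and 4788) and 4321 higher and 7698 lower in C1HR (with TMM, 6109 and 5678).

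By cluster, all 7 tested HoxC genes (median log2 fold change −0.85) and both tested HoxD genes (median −1.20) were called lower under the label DKO, beside 7 of 10 in HoxA (median −0.46) and 3 of 7 in HoxB (median −0.37). In C1HR the medians were 1.92 for 7 HoxC genes, 2.22 for 2 HoxD genes, 1.70 for 10 HoxA genes and 1.47 for 6 HoxB genes. By position, all 8 tested genes of paralogues 9 to 11 were called lower under the label DKO (median −0.90), beside 7 of 10 of paralogues 5 to 8 (median −0.53) and 4 of 8 of paralogues 1 to 4 (median −0.45). For the counts by cluster and by position, the share called lower over all genes tested was 30.9%, and the HoxB count was near it. Across the 26 genes the rank correlation of log2 fold change with paralogue number was −0.57. In C1HR the medians of the same bands were 1.82, 1.84 and 1.82, and the rank correlation was −0.03 over 25 genes. These correlations are descriptions over genes that share libraries and, within a cluster, neighbouring exons.

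The effects of the 2 experiments were then set against each other. In 1 fit of all 4 groups, the difference of the effects, DKO against WT minus C1HR against WT, was called negative for 26 of 26 members tested, beside 42% of 15387 genes called negative and 38.1% called positive. It ran from −3.86 ± 0.37 (SE) on the log2 scale for Hoxd9 (edgeR, adjusted p = 3.9e-12) to −0.86 ± 0.20 for Hoxa4 (adjusted p = 1.9e-04), with a median of −2.24. For Hoxb4, which was not called in the Sik2/3 experiment, it was −1.08 ± 0.15 (adjusted p = 1.4e-08). The sign of each Sik2/3 effect and the size of this difference rest on the DKO and WT labels, which the Sik2 row goes against, and with those labels exchanged each Sik2/3 effect would turn its sign. Under library totals alone the difference for Hoxa4 was −0.29 and was not called (adjusted p = 0.147). Without WT 5, WT 6, C1HR 8 and C1HR 9 the difference was called negative for all 26 members, with a median of −2.435, beside 6565 of 15532 genes. Genotype, preparation and the 2 sets of mice cannot be told apart in this difference.

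The posterior and the marrow-associated genes were then set against each other, to ask whether members known from the limb and members known from blood-forming cells differed in size of change. The median log2 fold change of the 4 tested posterior genes was −0.97 under the label DKO, and that of Hoxa5, Hoxa6, Hoxa7 and Hoxa9 was −0.56, a difference of −0.41. In C1HR the medians were 1.82 and 1.48, a difference of 0.33. In each library the mean log2 CPM of the posterior genes minus that of the 4 other genes was −0.91, −0.80 and −0.64 (lowest, median, highest) in the libraries labelled DKO and −0.71, −0.51 and −0.28 in those labelled WT, with 5 of 8 libraries labelled DKO below the lowest labelled WT. It was −0.11, 0.25 and 0.46 in C1HR and −0.27, 0.01 and 0.27 in its WT group, with 4 of 12 C1HR libraries above the highest WT library. The groups overlapped in both experiments, and no test was run on this index. Both sets moved in the same direction in each experiment, and the posterior set had the larger median change. Gene by gene the sets overlapped. Hoxa10 changed less (−0.42) under the label DKO than Hoxa5, Hoxa7 and Hoxa9. In C1HR Hoxa6 (1.84) changed more than Hoxa10, Hoxa11 and Hoxc10. The other Hox genes tested had medians of −0.53 under the label DKO and 1.88 in C1HR, the latter above the posterior median. With no filter on low counts, further posterior genes with few reads enter the median, and the posterior minus marrow difference became 0.156 under the label DKO and 0.123 in C1HR.

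**Figure D4:**
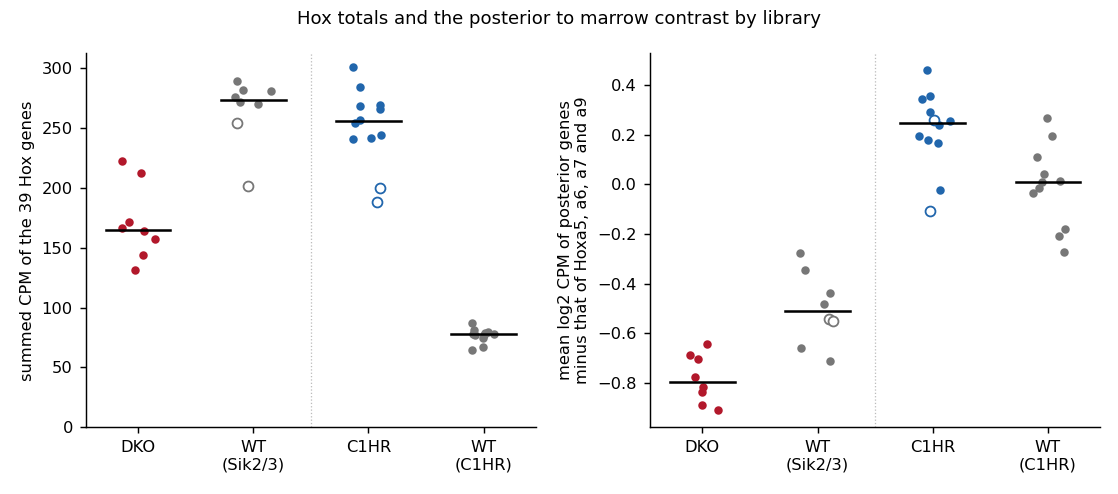
Summed CPM of the 39 Hox genes (left panel) and the mean log2 CPM of Hoxa10, Hoxa11, Hoxc10 and Hoxc11 minus that of Hoxa5, Hoxa6, Hoxa7 and Hoxa9 (right panel) in each library, with the group median (line); open points are WT 5 and WT 6 of the Sik2/3 experiment and C1HR 8 and C1HR 9. The sums of C1HR libraries all lie above those of their WT group, and the medians of the index are −0.80 and −0.51 in the libraries labelled DKO and WT, and 0.25 and 0.01 in C1HR and its WT group.

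The composition of the libraries moved with these results. Granulocyte genes summed to 9947 to 24960 CPM in the libraries labelled DKO and 872 to 16070 CPM in those labelled WT, and to 246 to 5747 CPM in C1HR, beside 13560 to 20170 CPM in its WT group. Erythroid genes summed to 1016 to 3162 CPM in the libraries labelled DKO and 20.9 to 1257 CPM in those labelled WT, and to 54.9 to 4501 CPM in C1HR, beside 9894 to 14840 CPM in its WT group. Without WT 5 and WT 6 the highest sums labelled WT were 2967 CPM for granulocyte and 145.2 CPM for erythroid genes. All 8 libraries labelled DKO then lay above them in both lists. Without C1HR 8 and C1HR 9 the highest C1HR sums were 1507 CPM for granulocyte and 565.6 CPM for erythroid genes. No gene of these lists was at 0 in all libraries. The median log2 fold changes under the label DKO were 2.19 for granulocyte, 2.76 for erythroid, 2.37 for B-lineage and 2.33 for megakaryocyte genes. In C1HR they were −3.58, −3.74, −2.14 and −4.44 for the same lists. Of 9 genes of haematopoietic progenitors, 5 were called higher and 1 lower under the label DKO (median 0.74), and 2 higher and 5 lower in C1HR (median −1.08). Over all genes tested, 24.1% were called higher and 30.9% lower under the label DKO, and 43.7% higher and 40.6% lower in C1HR. Hoxa9 was called lower under the label DKO and higher in C1HR, and 7 of 26 tested Hox genes were not called under the label DKO.

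Among 11 limb mesenchyme genes, 9 were called lower and 1 higher under the label DKO (median −0.60), and all 10 tested were called higher in C1HR (median 2.07). With library totals alone the calls under the label DKO were 5 lower and 1 higher, and 9 of 10 were called higher in C1HR. The gene called higher under the label DKO was Cxcl12 (1.78 ± 0.61, adjusted p = 0.0214), a chemokine of marrow stroma, and the summed level of the list, in which it weighs most, was 2237 to 2863 CPM in the libraries labelled DKO and 1337 to 2963 CPM in those labelled WT. Prrx1, a homeobox gene of early limb mesenchyme, had a log2 fold change of −0.97 ± 0.16 (adjusted p = 0.000183) under the label DKO and 2.25 ± 0.07 (adjusted p = 2.47e-18) in C1HR. Tbx4, which marks the hindlimb and lost its call under the label DKO with library totals alone (adjusted p = 0.173), had −0.60 ± 0.24 (adjusted p = 0.0454) and 2.23 ± 0.16 (adjusted p = 1.24e-12). Of 10 osteoblast and osteocyte genes, 3 were called lower and 1 higher under the label DKO (median −0.46), and 9 were called higher in C1HR (median 1.76). Over all genes tested, 30.9% were called lower and 24.1% higher under the label DKO, and 43.7% higher in C1HR. All 5 osteoclast genes were called lower under the label DKO (median −2.04) and higher in C1HR (median 1.76). Skeletal muscle genes, cartilage genes and endothelial genes had medians of −1.42, 0.76 and −0.01 under the label DKO and 0.29, 0.25 and 0.72 in C1HR, where library totals alone put muscle and cartilage at −0.08 and −0.16, and endothelial genes under the label DKO at 0.21. The part of cell composition in the Hox result was not tested. Without WT 5 and WT 6, 20 members were called lower under the label DKO and 0 higher, and without C1HR 8 and C1HR 9 all 25 tested members were called higher in C1HR.

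**Figure D5:**
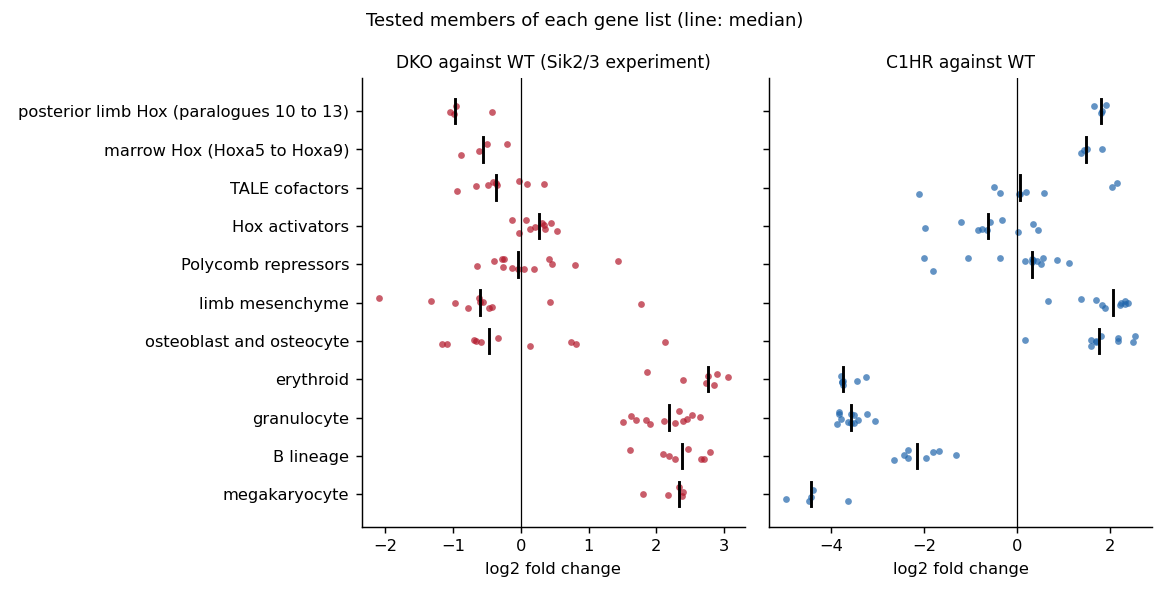
Log2 fold change of each tested member (points) of 11 gene lists with the list median (line), for DKO against WT in the Sik2/3 experiment (left) and C1HR against WT (right). Both Hox lists and limb mesenchyme have medians below 0 on the left and above 0 on the right, and the 4 lists of blood cells have the opposite signs.

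TALE proteins are homeodomain cofactors that bind DNA with Hox proteins. Of 9 TALE genes, 4 were called lower and 1 higher under the label DKO (median −0.37), and 4 were called higher and 3 lower in C1HR (median 0.08). Scaled by library totals alone, 3 were called higher and 3 lower under the label DKO (median −0.16), and 3 higher and 6 lower in C1HR (median −0.33). Over all genes tested, with TMM, 30.9% were called lower and 24.1% higher under the label DKO. In C1HR 43.7% were called higher and 40.6% lower, and the TALE counts there were near these shares. Meis2 had a log2 fold change of −0.94 ± 0.18 (adjusted p = 0.000429) under the label DKO and 2.17 ± 0.14 (adjusted p = 3.07e-13) in C1HR. Meis3 had −0.66 ± 0.17 (adjusted p = 0.00447) and 2.06 ± 0.11 (adjusted p = 5.41e-15). Meis1, the partner of Hoxa9 in blood-forming cells, had −0.37 ± 0.09 (adjusted p = 0.00332) and 0.58 ± 0.07 (adjusted p = 1.60e-08). The 3 Meis genes were thus called lower under the label DKO and higher in C1HR. With library totals alone Meis1 was not called under the label DKO (−0.155, adjusted p = 0.187), while Meis2 and Meis3 were. Pbx2 had 0.34 ± 0.07 (adjusted p = 0.000968) and 0.04 ± 0.05 (adjusted p = 0.414). Pbx3 had −0.48 ± 0.10 (adjusted p = 0.000908) and 0.08 ± 0.08 (adjusted p = 0.335). Of the other TALE genes, Pbx4 was called lower in C1HR (−2.10 ± 0.24, adjusted p = 1.43e-08), Pknox1 was too (−0.37 ± 0.07, adjusted p = 2.92e-05) and so was Pknox2 (−0.49 ± 0.22, adjusted p = 0.0376), and none of these 3 was called under the label DKO. With library totals alone, the direction of Pbx2 and Pbx3 in C1HR turned, to −0.366 and −0.332.

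The Trithorax and MLL complexes keep Hox genes active and the Polycomb complexes keep them silent. Of 13 activators, 10 were tested, of which 6 were called higher and 0 lower under the label DKO (median 0.26), and 2 higher and 7 lower in C1HR (median −0.61). Under library totals alone, 7 were called higher and 0 lower under the label DKO (median 0.48), and 0 higher and 8 lower in C1HR (median −1.01). Psip1, which tethers MLL to chromatin, had 0.53 ± 0.13 (adjusted p = 0.0027) under the label DKO and −1.20 ± 0.09 (adjusted p = 2.02e-12) in C1HR. Rbbp5, a core subunit of MLL complexes, had 0.35 ± 0.06 (adjusted p = 0.000288) and −0.74 ± 0.08 (adjusted p = 1.49e-09). Of 13 Polycomb genes, 4 were called higher and 4 lower under the label DKO (median −0.04), and 8 higher and 4 lower in C1HR (median 0.33). With library totals alone the Polycomb counts were 5 higher and 1 lower under the label DKO (median 0.17) and 4 higher and 4 lower in C1HR (median −0.07). For both lists, the shares over all genes tested with TMM were 24.1% higher and 30.9% lower under the label DKO. In C1HR they were 43.7% higher and 40.6% lower. The Polycomb genes called lower under the label DKO were near that share. Ezh2, the methyltransferase of Polycomb repressive complex 2, had 1.43 ± 0.23 (adjusted p = 0.00012) under the label DKO and −2.01 ± 0.17 (adjusted p = 6.81e-11) in C1HR. Eed, another core subunit of that complex, had 0.47 ± 0.10 (adjusted p = 0.000886) and −1.06 ± 0.09 (adjusted p = 3.51e-11). Other members did not follow these directions. The 4 Polycomb genes called lower under the label DKO, Bmi1, Cbx8, Phc1 and Phc2, were all called higher in C1HR. Phc2 had −0.64 ± 0.15 (adjusted p = 0.00231) and 0.51 ± 0.04 (adjusted p = 6.35e-11). The MLL gene Kmt2a was called higher in both, at 0.35 ± 0.11 (adjusted p = 0.0145) and 0.46 ± 0.06 (adjusted p = 2.13e-07). Ezh2 is also a gene of dividing cells, and the blood-cell markers above moved with it. The part of that in its values was not tested.

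Of 6 neighbours of the Hox genes, Hotairm1 and Hotair were called lower under the label DKO. Hotairm1, transcribed antisense from the anterior end of HoxA and annotated as Gm15051, had a log2 fold change of −0.70 ± 0.16 (adjusted p = 0.00184) under the label DKO and 2.03 ± 0.17 (adjusted p = 3.11e-11) in C1HR. Hotair, transcribed from between Hoxc11 and Hoxc12 and annotated as Gm16258, had −1.06 ± 0.25 (adjusted p = 0.00193) under the label DKO and did not pass the filter in C1HR, where its mean was 0.181 CPM, against 0.0118 CPM in the WT group. Hoxa11os, the antisense RNA of Hoxa11, had −0.67 ± 0.29 (adjusted p = 0.0571), which was not called, and 2.07 ± 0.26 in C1HR (adjusted p = 4.49e-08). Thus 2 of 3 tested neighbours were called lower in the Sik2/3 experiment, beside 30.9% of all genes, and 2 of 2 were called higher in C1HR, beside 43.7%. The coding genes Evx1 and Evx2 and the non-coding Hottip, beyond the posterior ends of the HoxA and HoxD clusters, were not tested in either experiment, and each averaged at most 0.132 CPM.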

How the data were processed

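RNA from mouse femur cortical bone was sequenced as single-end reads of 50 bases on a BGISEQ500 instrument from RNA with an integrity number above 8.0, per the design text. The authors mapped reads with STAR to mm9 with Ensembl annotation and made counts per gene with HTSeq 0.6.0, per the design text; versions of STAR and of the annotation are not given in the sources used here. The deposited values are whole-number counts that sum to different totals per library, so they were used as raw counts although the design text calls them CPM. Each file has 37583 genes and 5 tallies of unassigned reads, which were left out of library sizes.

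Symbols, exons and coordinates came from GENCODE vM1 (NCBIM37), which matched 37168 identifiers and left 415 unmatched. Of 40 identifiers named as Hox genes, 2 are Hoxa3; the one whose exons all overlap other genes had 0 reads and was not used. CPM were computed from the counts and TMM library sizes within each experiment, and log2 CPM with a prior count of 2. Genes passed filterByExpr (minimum count 10, minimum total 15), and the test of each comparison was the robust quasi-likelihood F test of edgeR, adjusted by Benjamini-Hochberg over all of its genes and calls at an adjusted p under 0.05. Every adjusted p in the text is from edgeR. The work used edgeR 4.0.16, limma 3.58.1 and DESeq2 1.42.0 in R 4.3.3, and pandas 2.3.3, numpy 2.4.6 and matplotlib 3.10.9 in Python 3.11.15. Replicates are the separately labelled samples; nothing says that they came from separate animals, so p-values measure the spread between these samples. Chi-square per degree of freedom between libraries of a group, over genes with a summed count above 20, was at least 4.61, so none were duplicates. Gene counts ran from 22122742 to 23306853 in libraries labelled DKO, 20324595 to 24922490 in those labelled WT, 14909609 to 16370874 in C1HR and 11444686 to 13475805 in its WT group. Limits for a count of 0 cover counting error only, since reads carry no molecular identifiers.

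The members and gene lists were chosen with earlier results of these data known. Full values are given for members with a mean of at least 1 CPM in any group. Of other lists the members with the smallest p, some members that moved otherwise, the TALE genes, Prrx1 and Tbx4 are named. Tests were checked on simulated counts. Alternatives were other scalings, no filter, DESeq2, limma voom, a replicate block, a 2-fold criterion and left-out libraries. Numbers in the labels are shared between groups but were not taken to pair the samples. A Hox gene and a TALE gene enter the counts, sums and medians but are not reported individually here.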

Additional observations from a re-analysis of the deposited data

Results flagged for a closer look

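The effects of the 2 experiments differed for the 25 members named here, by the test of the difference itself in 1 edgeR fit of all 4 groups (adjusted p between 8.4e-17 and 1.9e-04). Each value here is a log2 fold change of DKO against WT minus that of C1HR against WT, and so rests on the DKO and WT labels, which the higher Sik2 under the label DKO goes against. With library totals alone the difference of Hoxa4 was −0.289 and was not called (adjusted p = 0.147). In HoxA it was −2.56 for Hoxa2, −2.27 for Hoxa3, −0.86 for Hoxa4, −1.95 for Hoxa5, −1.99 for Hoxa6, −2.20 for Hoxa7, −2.002 for Hoxa9, −2.01 for Hoxa10 and −2.71 for Hoxa11. In HoxB it was −2.11 for Hoxb2, −2.32 for Hoxb3, −1.08 for Hoxb4, −1.70 for Hoxb5, −1.70 for Hoxb6, −1.76 for Hoxb7 and −1.88 for Hoxb9. In HoxC it was −3.02 for Hoxc4, −2.74 for Hoxc5, −2.46 for Hoxc6, −2.79 for Hoxc8, −2.65 for Hoxc9, −2.81 for Hoxc10 and −2.84 for Hoxc11. In HoxD it was −2.86 for Hoxd8 and −3.86 for Hoxd9.

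In 5 of 52 groups of 8 libraries, 1 library lay farther from the others than Dixon's 95% limit allows, where chance gives about 1 in 20. In the library labelled DKO 7, Hoxa2 had 4.31 CPM while the next highest library labelled DKO had 3.18 CPM, and Hoxa11 had 1.52 CPM while the next had 0.972 CPM. WT 5 of the Sik2/3 experiment had 7.13 CPM of Hoxc4, the lowest of its group, where the next lowest had 12.2 CPM. WT 6 had 22.3 CPM of Hoxd8 and 5.49 CPM of Hoxd9, where the next highest libraries labelled WT had 15.1 and 1.84 CPM.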

How the results depend on the processing

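The count of members called higher under the label DKO stayed 0 and that called lower in C1HR stayed 0 under every alternative run. Members called lower under the label DKO numbered 17 to 22 under RLE scaling, no filter, DESeq2, limma voom and the replicate block, 20 without WT 5 and WT 6, and 16 to 22 when each library was left out in turn. They numbered 12 with library totals alone, an alternative added after seeing the data, and 3 with the 2-fold criterion. Hoxb2 and Hoxb7 lost their calls under RLE, no filter and DESeq2, Hoxa10 and Hoxb7 without WT 5 and WT 6, and Hoxa2, Hoxa3, Hoxa5, Hoxa10, Hoxb2, Hoxb7 and Hoxc5 with library totals alone. Hoxa4 and Hoxb3 were among the members that gained a call without WT 5 and WT 6. Members called higher in C1HR numbered 24 to 31 under all alternatives, 30 or 31 with no filter and with DESeq2, and 26, with Hoxb6, where 1 of 10 of the 11 WT libraries was left out. The difference of the effects was called for 25 to 31 members. No tested member changed sign past the threshold.

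The posterior minus marrow value under the label DKO turned to 0.156 with no filter and that in C1HR fell to 0.123 there, because posterior genes with few reads enter the median; leaving out 1 library at a time gave −0.453 to −0.362 and 0.311 to 0.359. Label numbers gave correlations of deviations from −0.26 to 0.31 (median 0.137, 5 of 8 pairs over 0.1) in the Sik2/3 experiment and −0.18 to 0.34 (median −0.0792, 4 of 11 over 0.1) in the C1HR experiment, so not every pair deviated together and the numbers were not taken as pairing. With them as a replicate block, 17 members were called lower and 0 higher under the label DKO, with Hoxa3, Hoxb2 and Hoxb7 lost and Hoxb3 gained, and 25 were called higher in C1HR.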
